A study of Homo sapiens with 2 samples.

Results

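The 14-3-3 proteins are adaptors that bind phosphorylated serine or threonine in other proteins and change where those proteins lie, what they bind or how active they are. Each works as a dimer of family members. The human genes are YWHAB (the beta protein), YWHAE (epsilon), YWHAG (gamma), YWHAH (eta), YWHAQ (theta, also called tau), YWHAZ (zeta) and SFN (sigma, a p53 target of epithelial cells). The sites where RBMS3 met the transcripts of these 7 genes were taken as every listed site whose deleted base lay in the gene, on the strand of the gene, in GENCODE release 44. They came to 44 of 27706 sites. All but SFN had at least 1, so 6 of 7 genes were represented. Of the 20046 protein-coding genes in the annotation, expressed in these cells or not, 37.6% had a listed site.

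The sites come from CLIP-seq, in which ultraviolet light fixes a protein to the RNA it touches and the RNA that comes down with the protein is sequenced. RBMS3 is an RNA-binding protein that binds RNA rich in A and U. It was expressed with an N-terminal FLAG tag from a lentiviral vector with an EF1a promoter in MDA-MB-231 cells, a widely used cell line from a triple-negative breast cancer, so these are sites of the added, tagged protein. The single group, FLAG-RBMS3, had 2 biological replicates, grown without further treatment. Both titles name MDA-MB-231, whereas the source and cell line labels of replicate 2 read MDA-MB-232. Replicate 2 was kept under the line in its title. The authors pooled the replicates before they called sites. No value below therefore has an error between replicates, no control library was analysed here, and no test between conditions was possible.

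A tag is a sequenced fragment that is unique by position and molecular identifier. Reverse transcriptase can skip the base that was fixed to the protein, so a site marks a deleted base and has a number of covering tags and a number of tags with the deletion. A percentage of tags with the deletion is given with its 95% Wilson interval, which covers counting error only. Neighbouring sites of a strand that were at most 50 nt apart were joined into a cluster. Coordinates are hg38 and start at 1.

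A poly(A) signal, AATAAA or its variant ATTAAA in DNA letters, lies shortly before the end of most mRNAs and directs cleavage and addition of the poly(A) tail. The 14-3-3 clusters with the most tags lay in 2 kinds of sequence, at such a signal or before a run of A. The transcript around the site with the most deletions in these clusters, and at the YWHAQ site nearest the transcript end, is shown for both. The deleted base, as listed, and the hexamer are in capitals for the first 4 sequences. For the last 2 these are the deleted base and the first 9 bases of the run of A. In the YWHAG sequence the listed base lies inside the hexamer. It is in a run of 3 A whose first base lies outside the hexamer, and which of these was lost cannot be read. Each reads 5′ to 3′ on the strand of the gene.
YWHAE, position 1344571: aacattaaactTaAATAAAacaaacctaaa
YWHAG, position 76326816: gtacattgagcaAATAAActtacagatctg
YWHAH, position 31957591: aatgggtaAATAAAtgctgcTttggggata
YWHAQ, position 9583984: atatggAATAAAgtggacatttTaaaacta
YWHAB, first cluster, position 44906484: AacatatatcccttgtgcgatAAAAAAAAA
YWHAB, last cluster, position 44908144: tgcactgaTttaaaacaaaccAAAAAAAAA

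The YWHAE stretch is chr17:1344553-1344582 on the minus strand, the YWHAG stretch is chr7:76326800-76326829 on the minus strand and the YWHAH stretch is chr22:31957571-31957600 on the plus strand. The YWHAQ stretch is chr2:9583977-9584006 on the minus strand. The YWHAB stretches are chr20:44906484-44906513 and chr20:44908136-44908165 on the plus strand. All 6 lie in the 3′UTR of the canonical transcript.

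YWHAB and YWHAE held most of the sites. Each had 15, YWHAZ had 5, YWHAG 4, YWHAH 3 and YWHAQ 2. The 44 sites formed 14 clusters: 4 in YWHAZ, 3 each in YWHAB and YWHAE, 2 in YWHAQ and 1 each in YWHAG and YWHAH. By the number of sites, YWHAB and YWHAE shared rank 130 of the 7542 genes with a site. By the deletions at the top site, YWHAB ranked 401, YWHAE 903, YWHAG 1524, YWHAH 3764, YWHAZ 3942 and YWHAQ 4133. By the highest number of tags at a site, YWHAB ranked 59 and YWHAE 221. Tag number follows both binding and the amount of RNA in the cell, and these cannot be told apart here.

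The 14-3-3 sites were covered by a median of 10801.5 tags (7 to 57042), compared with 2883.5 over the whole list. The median number of deletions was 67 (7 to 533), against 54, and the median percentage of tags with the deletion was 0.880%, against 2.95%. Of the 44 sites, 27 lie in the 2 large YWHAB clusters and the large YWHAE cluster. With the top site of each cluster alone, the median percentage was 2.23% over the 14 clusters and 37.5% over the 16060 clusters of the list. Of the 44 sites, 40 (90.9%) had the deletion in under 30% of their tags, and 70.1% of all sites did. The other 4 are YWHAB 44906952 (21 of 21 tags), YWHAE 1354286 (9 of 9) and the YWHAZ sites 3370 and 1234 nt before the canonical end (8 of 8 and 7 of 7). All 4 rest on few tags.

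The low percentages came with high tag numbers. At 10000 or more tags, 23 of the 14-3-3 sites under 30% had a median of 102 deletions and 0.573% of tags, compared with 99.5 deletions and 0.513% at 6932 sites of the whole list. From 1000 to 10000 tags the medians were 60 deletions and 1.88% at 16 sites of the family, against 67 and 2.12% at 10634 sites. In both ranges the medians of the family were near those of the list. No site of the list with 1000 or more tags and under 30% had fewer than 37 deletions, and the fewest at a 14-3-3 site of that kind was 47.

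**Figure D1:**
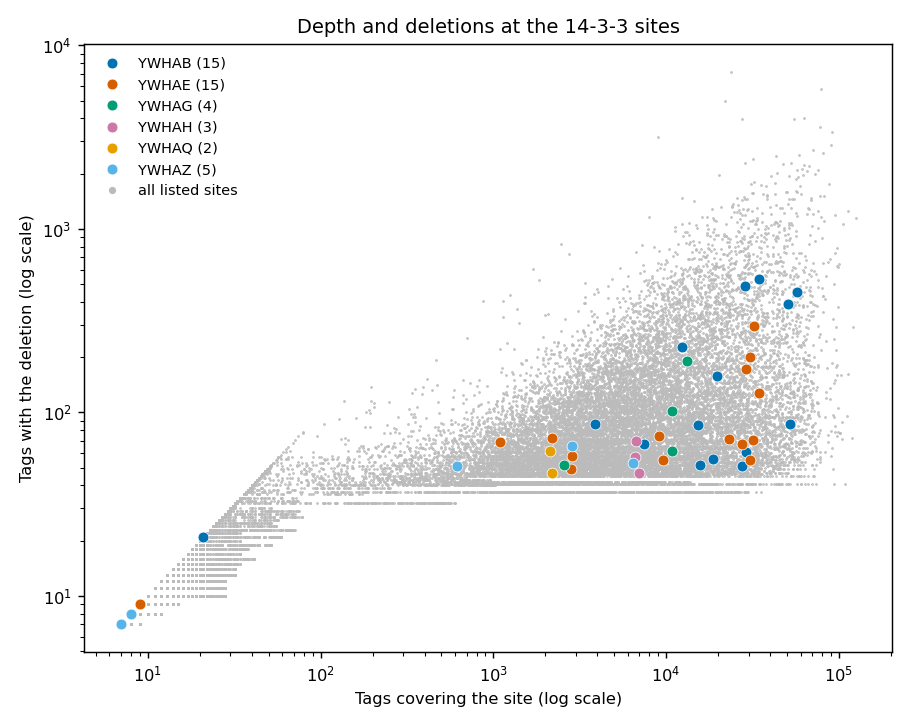
Tags covering each site (x axis, log scale) and tags with the deletion (y axis, log scale) for all 27706 listed sites (grey) and the 44 sites of the 14-3-3 genes (coloured by gene, with the number of sites in the key). Most YWHAB and YWHAE sites lie at the right, at high tag numbers, and the 4 sites with the deletion in every tag lie at the lower left.

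YWHAB (ENSG00000166913.13) lies on chromosome 20 from 44885702 to 44908532 on the plus strand, and its canonical 3′UTR of 2094 nt starts at 44906439. The first cluster held 8 sites from 44906440 to 44906496 and began 1 nt into the 3′UTR. Tag number was lowest at 15380 and highest at 57042, and the deletions in the 8 sites summed to 1343. At its top site, 44906484, 454 of 57042 tags carried the deletion (0.796%, interval 0.726 to 0.872%). At 44906496 the numbers were 390 of 50547 (0.772%, 0.699 to 0.852%), and at 44906451 they were 158 of 19735 (0.801%, 0.685 to 0.935%). The percentages of these 3 sites have overlapping intervals. The other 5 had 52 to 87 deletions, and 44906493, between the 2 deepest of the first 3, had 87 of 51875 (0.168%, 0.136 to 0.207%).

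The first cluster ended directly before a run of 23 A at 44906505 to 44906527, the sequence whose start is shown above. Its last site was 9 nt from the first A. Tag number was higher near the run: the 3 sites within 21 nt of it had 50547 to 57042 tags and the 5 farther ones 15380 to 28821. GENCODE places 2 transcript ends there, the end of the retained-intron transcript YWHAB-207 at 44906504 and that of YWHAB-206, annotated for nonsense-mediated decay, at 44906520, inside the run of A. No protein-coding transcript ends there. The nearest protein-coding end, at 44908532, was 2036 to 2092 nt away.

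The last YWHAB cluster held 6 sites from 44908067 to 44908144, 465 to 388 nt before the canonical end, with 1453 deletions in all. Here too the tags were more numerous toward runs of A. They were 3857 at 44908067, 7480 at 44908086, 12331 at 44908100, 27307 at 44908127, 28725 at 44908132 and 34284 at 44908144, and the next bases held runs of 9 A (44908157 to 44908165) and 11 A (44908175 to 44908185). The last site had the most deletions of all 44, 533 of 34284 (1.55%, 1.43 to 1.69%). The site at 44908132 had 487 of 28725 (1.70%, 1.55 to 1.85%) and the site at 44908100 had 228 of 12331 (1.85%, 1.63 to 2.10%), with intervals that overlap that of the last site. At 44908127 the share was 51 of 27307 (0.187%, 0.142 to 0.245%), below its neighbours. The percentages of the 3 leading sites lay above those of the first cluster, with no overlap of intervals.

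The only AATAAA of the YWHAB 3′UTR, at 44908501 to 44908506, 26 nt from the canonical end, had no site in reach, and no YWHAB window held a poly(A) signal. A window is the deleted base with 25 nt on each side, 51 nt in all. The site between the clusters, 44906952, had the deletion in 21 of 21 tags (100%, 84.5 to 100%).

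**Figure D2:**
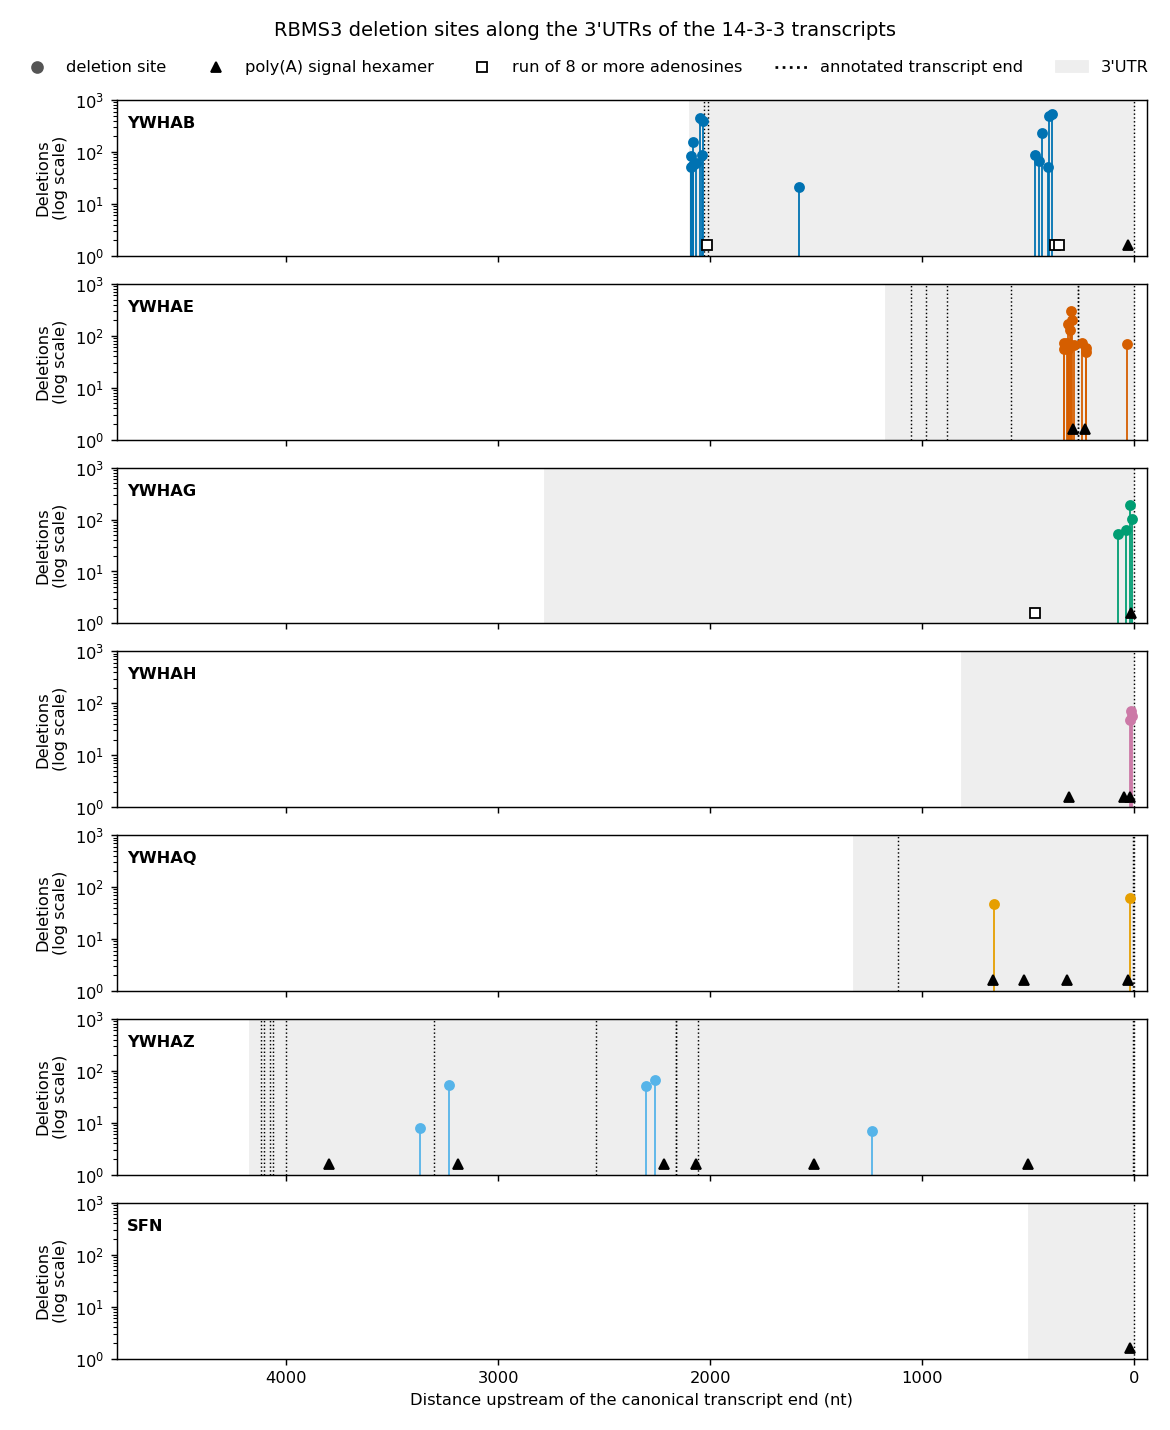
Deletions (y axis, log scale) at each site along the canonical 3′UTR (grey) of each 14-3-3 gene, by distance upstream of the canonical transcript end in nt. Triangles mark AATAAA hexamers, squares runs of 8 or more A and dotted lines annotated transcript ends. The YWHAG and YWHAH sites lie at the right edge, the 2 large YWHAB clusters lie far from it and beside squares, and SFN has none. The YWHAE site outside the canonical 3′UTR is not drawn.

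YWHAE (ENSG00000108953.17) lies on chromosome 17 from 1344275 to 1400222 on the minus strand, with a canonical 3′UTR of 1172 nt. One cluster of 13 sites, from 1344607 to 1344500, held 1371 deletions. The 10 sites from 1344607 to 1344557 had 1191 of these and lay 17 to 67 nt before the end of a protein-coding transcript, YWHAE-208, at 1344540, not the canonical one. Their tags numbered 9119 at 1344607, 34404 at 1344577 and 27572 at 1344557. A transcript annotated for nonsense-mediated decay, YWHAE-202, ends 1 nt farther on. The top site, 1344571, had 297 of 32248 tags with the deletion (0.921%, 0.822 to 1.03%). The next were 1344568 with 200 of 30483 (0.656%, 0.571 to 0.753%), 1344587 with 172 of 28893 (0.595%, 0.513 to 0.691%) and 1344577 with 128 of 34404 (0.372%, 0.313 to 0.442%). The interval of the top site did not overlap those of these 3. The other 6 had 55 to 74 deletions. Among them, 1344607 had 74 of 9119 (0.811%, 0.647 to 1.02%), with an interval that overlapped that of the top site.

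The AATAAA shown above, at 1344564 to 1344569, was in the windows of 7 of these sites. It began 2 nt downstream of the top site and 1 nt upstream of 1344568. An ATTAAA at 1344574 to 1344579 was in the windows of 8 sites. Beyond the YWHAE-208 end there were 2195 to 2843 tags at the remaining 3 sites of the cluster (1344520, 1344501 and 1344500), whose windows held the second AATAAA, at 1344504 to 1344509. These had 73, 58 and 49 deletions, or 3.33%, 2.04% and 1.74% of tags. Near the canonical end at 1344275 there was 1 site, 1344307, 32 nt upstream, with 69 of 1100 tags (6.27%, 4.99 to 7.86%). It had an ATTAAA in its window 17 nt from the end. The highest tag number before the YWHAE-208 end was thus 34404, and the tag number before the canonical end was 1100. Which share of YWHAE mRNA ends at each place was not measured here.

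YWHAE also had the only site outside a canonical 3′UTR. The base at 1354286 is coding in an annotated transcript and 3′UTR in another, which is not the canonical one. It was covered by 9 tags, all 9 with the deletion (100%, 70.1 to 100%).

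YWHAG (ENSG00000170027.7, chromosome 7, 76326799 to 76358991, minus strand) has 1 annotated transcript with a 3′UTR of 2778 nt. Its 4 sites lay in the last 73 nt of it. They had 52 of 2576 tags at 73 nt from the end (2.02%, 1.54 to 2.64%), 62 of 10815 at 35 nt (0.573%, 0.447 to 0.734%), 190 of 13140 at 17 nt (1.45%, 1.26 to 1.66%) and 102 of 10788 at 10 nt (0.945%, 0.780 to 1.15%). The site at 17 nt was above those at 35 and 10 nt with no overlap of intervals, and overlapped that at 73 nt. The 3 nearest the end had in their windows the only AATAAA of this 3′UTR. A run of 8 A at 76327260 to 76327267 had no site in the 50 nt before it.

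YWHAH (ENSG00000128245.15, chromosome 22, 31944522 to 31957603, plus strand) had 3 sites in 8 nt, 16, 12 and 9 nt from the end of a 3′UTR of 811 nt. They had 47 of 6958 tags (0.675%, 0.508 to 0.897%), 70 of 6708 (1.04%, 0.827 to 1.32%) and 57 of 6592 (0.865%, 0.668 to 1.12%), and their intervals overlapped. Of 3 AATAAA copies in the 3′UTR, the last, 19 nt from the end, was in the window of all 3 sites and the others of none.

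YWHAQ (ENSG00000134308.14, chromosome 2, 9583967 to 9630997, minus strand) had 2 separate sites in a 3′UTR of 1319 nt. At 9584627, 655 nt before the nearest end, 47 of 2187 tags had the deletion (2.15%, 1.62 to 2.85%). At 9583984, 12 nt before the nearest end, it was 62 of 2120 (2.92%, 2.29 to 3.73%), and the intervals overlapped. Each window held 1 of the 4 AATAAA copies, the first and the last.

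**Figure D3:**
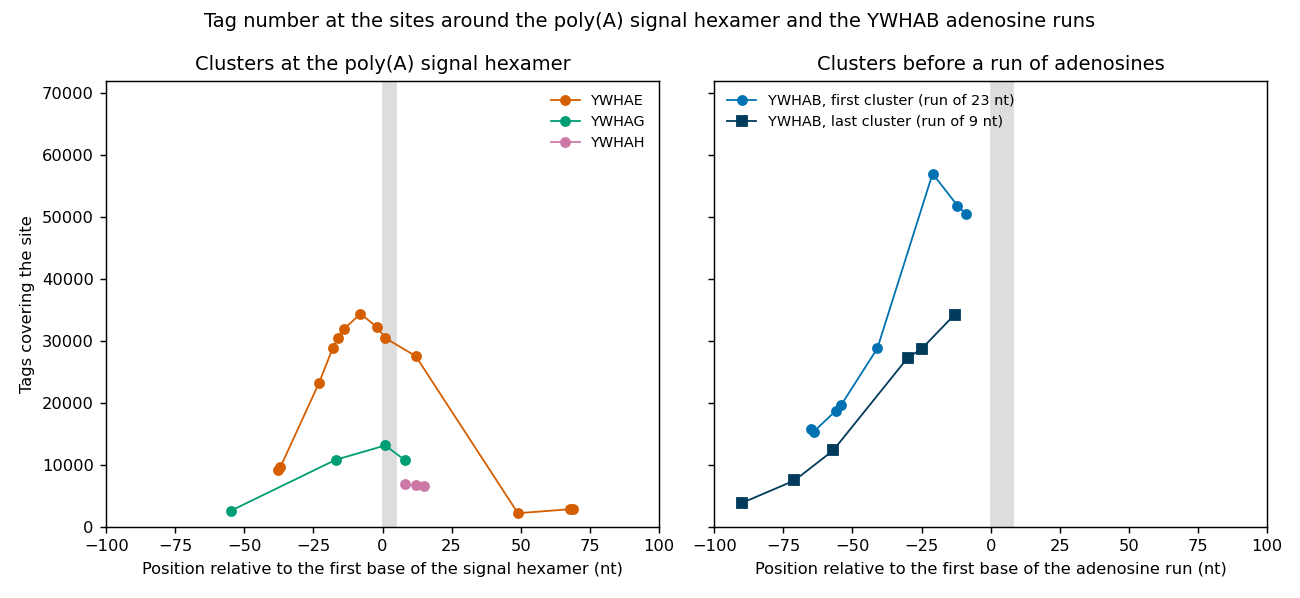
Tags covering each site (y axis) by position in nt relative to the first base of the AATAAA in YWHAE, YWHAG and YWHAH (left) and of the run of A in both large YWHAB clusters (right). Grey bands mark the hexamer and 9 A, and lines join sites of a cluster. In YWHAE the highest tag number, 34404, lay just before the hexamer and further sites lay past it. In both YWHAB clusters every site lay before the run drawn for its cluster, with up to 57042 tags.

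In the 5 genes YWHAE, YWHAG, YWHAH, YWHAQ and YWHAZ, no run of 8 or more A started within 50 nt downstream of a site. In YWHAB 7 of the 15 sites had one, 4 in the first cluster and 3 in the last. This is 7 of the 44 (15.9%), against 6.43% of all sites, and none of the 7 had a poly(A) signal in its window. Over the whole list, 4.57% of sites had the run and no signal. These 7 sites lie in 2 clusters of 1 gene, so they are not 7 separate cases. The bound RNA was given a poly(A) tail, captured with oligo(dT) and reverse transcribed in the library protocol, and oligo(dT) also pairs with a run of A inside a transcript and with the tail of an mRNA. The part of these steps in the tag numbers before runs of A and before transcript ends was not tested. Another 16 sites (36.4%) had neither a run of A downstream nor a signal. Over the whole list 58.3% of sites had a signal and 4.57% had the run and no signal. The sites with neither are the rest of the list, and the share of the family was near theirs.

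A poly(A) signal was in 21 of the 44 windows (47.7%), and 58.3% of all sites had one. With the top site of each cluster alone it was 7 of 14, against 50.9% over the list. AATAAA itself was in 18 (40.9%): 10 in YWHAE, 3 each in YWHAG and YWHAH and 2 in YWHAQ. By gene, then, YWHAG, YWHAH and YWHAQ had a signal at 8 of 9 sites and YWHAB at 0 of 15. The canonical 3′UTRs of all 7 genes hold 18 copies of AATAAA, of which 6 (33.3%) lay in the window of a site. The share was 27.7% of 18745 copies in the 3′UTRs of all genes with a 3′UTR site. The 18 copies include 1 in SFN, which had no site and is therefore not of the kind counted in the 27.7%. Of 9 copies of ATTAAA, 4 lay in the window of a site.

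The AUA motif that the study examined has 7 letters in DNA: A, G or T, then A or T, then ATA, then A or T, then A. It was searched on the transcript strand. An AATAAA that follows A, G or T is itself a match, so the count of the motif is not separate from that of AATAAA. It was in 17 of 44 windows (38.6%), compared with 46.8% of all sites, or in 4 of 14 with the top site of each cluster alone (28.6%, against 41.3% over the list). The 17 were 10 windows of YWHAE, 3 each of YWHAG and YWHAH and 1 of YWHAQ. In all 17 every match overlapped AATAAA. A match apart from AATAAA was thus in 0 of 44 windows, and in 13.3% of windows over the whole list. The 3′UTRs of the family do hold such matches, 28 in all: 20 in YWHAZ, 5 in YWHAG and 3 in YWHAQ. None of the 28 lay in the window of a site, against 6.87% of 29795 in the 3′UTRs of all genes with a 3′UTR site.

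All 44 sites (100%) lay in the 3′UTR of some transcript, compared with 76.6% of all sites, and 43 lay in that of the canonical one. The sites of the family were taken within protein-coding genes. The whole list also holds sites between genes, so the 2 shares are not over like sets. The share among listed sites within protein-coding genes was not computed. Within 100 nt upstream of an annotated end there were 29 (65.9%), against 69.2% of all 3′UTR sites. These were 11 in YWHAE, 8 in YWHAB, 4 in YWHAG, 3 in YWHAH, 2 in YWHAZ and 1 in YWHAQ. With the ends of protein-coding transcripts alone the number was 21, since the 8 YWHAB sites no longer counted, and with the end of the canonical transcript alone it was 9. Of the 29 sites, 20 were therefore near an end other than the canonical one. These narrower counts were not made over the whole list, so how usual they are is unknown.

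YWHAZ (ENSG00000164924.18, chromosome 8, 100916523 to 100953388, minus strand) has the longest 3′UTR of the family, 4170 nt, and the most annotated transcripts, 23 with 16 distinct ends. Its 5 sites formed 4 clusters and lay far from the canonical end. At 3370 nt from it, 8 of 8 tags had the deletion (100%, 67.6 to 100%). At 3232 nt it was 53 of 6405 (0.827%, 0.633 to 1.08%), at 2303 nt 51 of 620 (8.23%, 6.31 to 10.7%), at 2262 nt 66 of 2844 (2.32%, 1.83 to 2.94%) and at 1234 nt 7 of 7 (100%, 64.6 to 100%). The intervals of the 3 sites at 3232, 2303 and 2262 nt did not overlap each other.

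The YWHAZ site at 2262 nt lay 99 nt before the end of the protein-coding transcript YWHAZ-201 and the site at 3370 nt lay 64 nt before the shared end of YWHAZ-216 and YWHAZ-219. None of the 6 AATAAA copies in this 3′UTR was in the window of a site, and 1 of 4 ATTAAA copies was, at the site with 6405 tags. The deleted base was T at all 5 sites. It lay in runs of 5, 2, 6, 4 and 5 T, in 5′ to 3′ order of the sites.

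**Figure D4:**
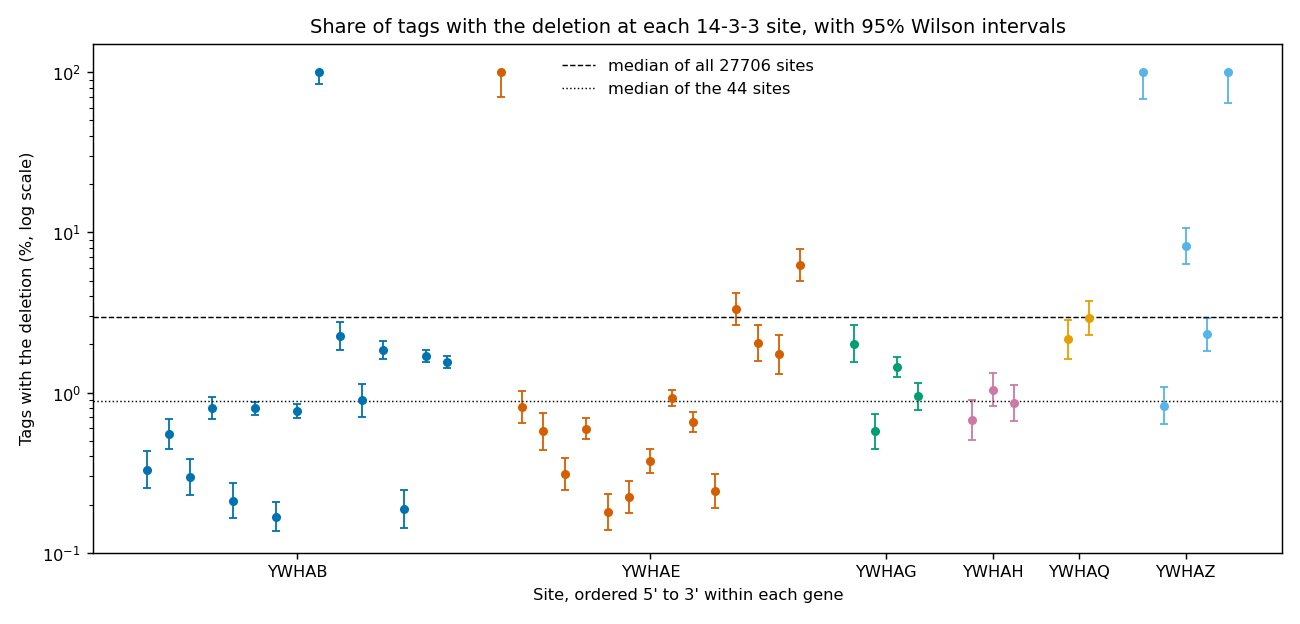
Percentage of tags with the deletion (y axis, log scale) at each of the 44 sites in 5′ to 3′ order within each gene, with 95% Wilson intervals as bars. Dashed and dotted lines mark the medians of the whole list (2.95%) and of these sites (0.880%), and 4 sites on few tags lie at 100%.

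SFN (ENSG00000175793.12, chromosome 1, 26863149 to 26864456, plus strand) had 0 listed sites. Its 3′UTR of 497 nt has an AATAAA 17 nt from the end. The list holds only sites that passed the authors' filter and gives no tags elsewhere, so SFN RNA without binding and absence of SFN RNA from the libraries cannot be told apart, and no limit could be set on its deletions.

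T was the deleted base at 24 sites (54.5%), against 63.2% of all sites, and C at 9 (20.5%), against 7.80%. The 9 deletions of C were 3 each in YWHAB and YWHAE and 1 each in YWHAG, YWHAH and YWHAQ. G was deleted at 6 sites (13.6%, against 8.02%) and A at 5 (11.4%, against 21.0%). At 30 of 44 sites the deleted base lay in a run of 2 or more of the same base, and at all 30 it is listed at the lowest coordinate of the run. Which base of the run was lost cannot be read from such a position. Runs of 3 or more T held 14 of the 24 T deletions. Runs of the deleted base were not counted over the whole list.

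The family has many pseudogene copies in the genome. GENCODE lists 26 pseudogenes named for it: 9 of YWHAZ, 8 of YWHAQ, 7 of YWHAE and 2 of YWHAB. None held a listed site on its strand. The 51-nt window was found once in the genome for 43 of the 44 sites. The exception was the YWHAZ site with 66 deletions, found in 1 other place, on chromosome 10 (105689483 to 105689533). In 21-nt windows 32 sites were unique. The other 12 were 7 in YWHAE, 3 in YWHAZ and 1 each in YWHAB and YWHAQ, found again in at most 10 other places, for the YWHAZ site with 6405 tags. Tag lengths are not in the list, so how many tags could be placed in more than 1 locus is unknown, and these sites are uncertain to that extent. The large YWHAE cluster was of this kind: 21-nt windows of 7 of its 13 sites recurred on chromosome 7 or chromosome 2, while its 51-nt windows did not.

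The proteins that 14-3-3 dimers bind were looked at in the same way, with 40 genes for known binding partners. Of these, 25 (62.5%) had a listed site, 76 sites in all. The share is read beside 37.6% of all protein-coding genes. Each of the 25 had a site in a 3′UTR. The share of all genes with a site that had one there was not computed, and 76.6% of all sites lay in a 3′UTR. Among the 25 the top site had a median of 67 deletions, against 70 over all genes with a site. The 15 without a site included FOXO1, FOXO3 and FOXO4, CDC25A, CDC25B and CDC25C, and TSC2.

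Partners with many deletions at a site included ZFP36L1, WWTR1, RND3 and CDKN1B. ZFP36L1, which binds AU-rich elements and promotes mRNA decay, had 17 of the 76 sites and 7182 of 23840 tags with the deletion at its top site (30.1%, 29.5 to 30.7%). WWTR1 (TAZ), a Hippo pathway coactivator that 14-3-3 holds in the cytoplasm, had 209 of 9681 (2.16%, 1.89 to 2.47%). RND3, a small GTPase, had 205 of 3220 (6.37%, 5.57 to 7.26%). CDKN1B, the cell cycle inhibitor p27, had 145 of 19441 (0.746%, 0.634 to 0.877%). The top sites of WWTR1, RND3 and CDKN1B lay 9 to 26 nt before a transcript end and had a poly(A) signal in the window. The top ZFP36L1 site lay 13 nt before an end and had none.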

How the data were processed

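FLAG-RBMS3 CLIP-seq was done in 2 biological replicates of MDA-MB-231 cells. The authors added molecular identifiers to the reads, aligned them to hg38, collapsed them to unique tags and called crosslinking-induced deletions on the pooled tags with the CLIP Tool Kit (version not given in the sources used here), and kept sites by false discovery rate and by a fold without a stated definition. The deposited numbers are raw counts for each site, of covering tags and of tags with the deletion. Total depth per library was not analysed here, so depth is given per site.

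Every interval is 21 nt long, and its centre was taken as the deleted base. Sites were placed on GENCODE release 44 by strand. A 3′UTR is exon after the stop codon, and ends are those of all transcripts of the gene not tagged as incomplete. Pooling lets a site rest on 1 replicate. Percentages have 95% Wilson intervals (counting error only, since tags of a cluster overlap). No test was run. The functions were tested on simulated sequence. Python 3.11.15, numpy 2.4.6, scipy 1.17.1, pysam 0.24.0 and matplotlib 3.10.9 were used.

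Named genes are all 7 members with every site and the 5 partners with the most deletions at a site, of which 1 is not reported here, and partners without a site are examples. The members and the list of 40 partners were chosen with earlier results of these data known. The measure of runs of A (8 or more, starting within 50 nt downstream) was chosen after the sites were seen. Alternatives covered deletions, percentages, strand, annotation, windows and clusters.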

Additional observations from a re-analysis of the deposited data

How the results depend on the processing

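Of 67 values under an alternative setting, 45 counted as unchanged and 22 moved. A count was taken as unchanged within 1.5 times its value, and the median percentage within the Wilson intervals of the sites at the median (0.668 to 1.14%), so a fall from 29 to 21 sites near an end counted as unchanged. Most moved with sites that had the deletion in at least 10% of tags, which leaves 4 sites in 3 genes, 4 in 3′UTRs, 4 clusters, 1 near an end and 0 with a signal, the AUA motif or a run of A. The median percentage there was 100%, and the top sites had 21 deletions in YWHAB, 9 in YWHAE and 8 in YWHAZ. The number near an end was 9 with the canonical end and 19 within 50 nt. With 1 site per cluster it was 8 of 14 (57.1%), against 59.0% of 3′UTR sites over the list. Windows with a signal numbered 11 at 10 nt on each side and 7 of 14 with 1 site per cluster. Windows with the AUA motif numbered 7 at 10 nt, 4 of 14 with 1 site per cluster and 0 apart from AATAAA. Joining sites within 10 nt gave 27 clusters. The median percentage with 1 site per cluster was 2.23%. Values with 1 site per cluster have 14 clusters as their base in place of 44 sites. No paired analysis was possible because the 2 replicates of the only group were pooled before sites were called, and for the same reason no replicate could be left out. Depth limits what is listed: a site with few tags is in the list only where the percentage is high.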
